A study of Mus musculus with 10 samples.

Results

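Mouse embryonic stem cells that had differentiated with both KGF and DCI were compared with untreated cells of the same day. The comparison used 4 of the 10 arrays of the study: KGF and DCI on days 17 and 24, and the control on days 17 and 24. They were chosen by their labels alone, and each pair of arrays was compared within its day. The 4 arrays with DCI alone or KGF alone on the same days were used only to divide the combined difference into its parts. The arrays of day 8 entered only the choice of probe sets and a check of the labels. Every condition was 1 array of cells of the strain C57BL/6. The labels give no number of cultures, no dose and no start of treatment.

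Alveolar type II cells line the gas-exchange surface of the lung, make and recycle surfactant, and can give rise to the flat type I cells. Keratinocyte growth factor (KGF, the product of Fgf7) is made by mesenchyme and acts on epithelium through a splice form of FGF receptor 2. DCI is taken here, from the title of the series, as dexamethasone together with agents that raise cyclic AMP. Dexamethasone acts through the glucocorticoid receptor, and cyclic AMP through protein kinase A and the factor CREB. These agents and KGF are known to promote maturation of the fetal lung epithelium. The title places the question in whether they together support differentiation into type II cells.

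Expression values are on the log2 scale, so that a difference of 1 is 2-fold, and pairs of values are given for day 17 and then day 24. The median of all gene values was 6.67. A difference is the mean of the 2 daily differences with its standard error (SE) from the limma fit over 8 arrays, and passing means an adjusted p below 0.05 over 18193 genes. The 2 days stand in for replicates, which the design does not have, so p-values measure only the spread between arrays after a constant effect of day and treatment. The cells are labelled as mouse embryonic stem cells at a day of differentiation. Pou5f1, the pluripotency factor, was at 6.24 and 4.79 with KGF and DCI and at 5.34 and 3.93 in controls, each below the median of all values. Nanog, another pluripotency gene, was at 6.85 and 5.07 with KGF and DCI and at 5.70 and 4.59 in controls. Its day 17 value with both treatments was above that median. The 3′ minus 5′ signal of the dap spike-in control was 2.49 and 1.43 with KGF and DCI, 2.68 and 1.35 with DCI alone, 1.82 and 1.50 with KGF alone, and 1.62 and 1.67 in controls. It was thus higher with both treatments on day 17 and lower on day 24. Its part in the results was not tested. The same signal of Actb was 0.615 and 0.537 with KGF and DCI, 0.62 and 0.593 with DCI alone, 0.476 and 0.512 with KGF alone, and 0.525 and 0.494 in controls. Every array with DCI was thus above every array without it. Gapdh did not separate them, at 0.049 with both treatments and 0.079 in the control on day 17. The part of these signals in the results was not tested.

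The combined treatment raised 676 genes (3.72% of those tested) and lowered 498 (2.74%). The differences of each of these had 1 sign on both days, which the test on the mean of the 2 days favours, against 11507 of all 18193 genes. At least 2-fold changes were found for 220 of the higher and 218 of the lower genes. Secretory proteins of airway and stomach led the rises, and genes of macrophages led the falls. In bulk cultures, fewer cells of a type and less RNA per cell cannot be told apart. The count rested on the arrays of day 24: 350 genes passed without the day 24 control and 362 without the combined array of that day. It was 611 without the day 17 control and 763 without the combined array of day 17. Of 191 genes of the lists described here that passed, 64 kept their call whichever 1 of the 8 arrays was left out.

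Each single treatment shares its control arrays with the combined one. DCI alone changed 896 genes (4.92%), 488 higher and 408 lower, and KGF alone changed 4 (0.022%), all higher. With 1 of the control or DCI arrays left out, the DCI count was 199 without the day 24 DCI array, 238 without the day 24 control, 268 without the day 17 DCI array and 469 without the day 17 control. The KGF count was 1 without either control and 2 without the day 24 KGF array or either DCI array. Among the 676 genes higher with both treatments, the median difference from control was 0.80 with both, 0.64 with DCI alone and 0.16 with KGF alone. Among the 498 lower genes the medians were -0.92, -0.82 and -0.13. Set against KGF alone, the combination changed 696 genes (3.83%), 360 higher and 336 lower. That count was 184 without the day 24 array with both treatments, 389 and 414 without the KGF arrays of days 24 and 17, and 425 without the day 17 array with both treatments. Set against DCI alone, it raised 2 genes (0.011%) and lowered none, with 788 at an unadjusted p under 0.05. The departure from the sum of the single effects passed for 0 genes (0.0%) in limma, also in each of the alternative settings, with 267 at an unadjusted p under 0.05 and a smallest adjusted p of 1.0. The median SE of a departure was 0.20.

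Bpifa1 encodes a protein secreted by nasal and large airway epithelium. It was at 10.92 and 10.98 with KGF and DCI, 7.98 and 7.56 with DCI alone, 10.38 and 10.17 with KGF alone and 6.51 and 5.70 in controls. All arrays with KGF were above 10 and both controls were below 7, so the groups did not overlap. The rise with both treatments was 4.85 ± 0.18 (28.8-fold, adjusted p = 3.55e-05), the largest of the rises. KGF alone gave 4.17 ± 0.18 (adjusted p = 0.000441) and DCI alone 1.67 ± 0.18 (adjusted p = 0.00305). Bpifa1 was also 1 of the 2 genes higher with both treatments than with DCI alone, by 3.18 ± 0.18 (adjusted p = 0.00343). The other was Wfdc18, a whey acidic protein family gene, at 8.69 and 12.13 with KGF and DCI, 6.73 and 10.47 with DCI alone, 7.79 and 10.99 with KGF alone and 5.94 and 9.08 in controls. On each day its order was the same, with both treatments highest, then KGF, DCI and control. Between both treatments and DCI alone, no gene passed without the day 24 DCI array, none higher and 1 lower without the day 17 DCI array, and 1 higher without the combined array of day 24. Leaving out either KGF array gave 5 (day 24) or 6 (day 17).

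**Figure D1:**
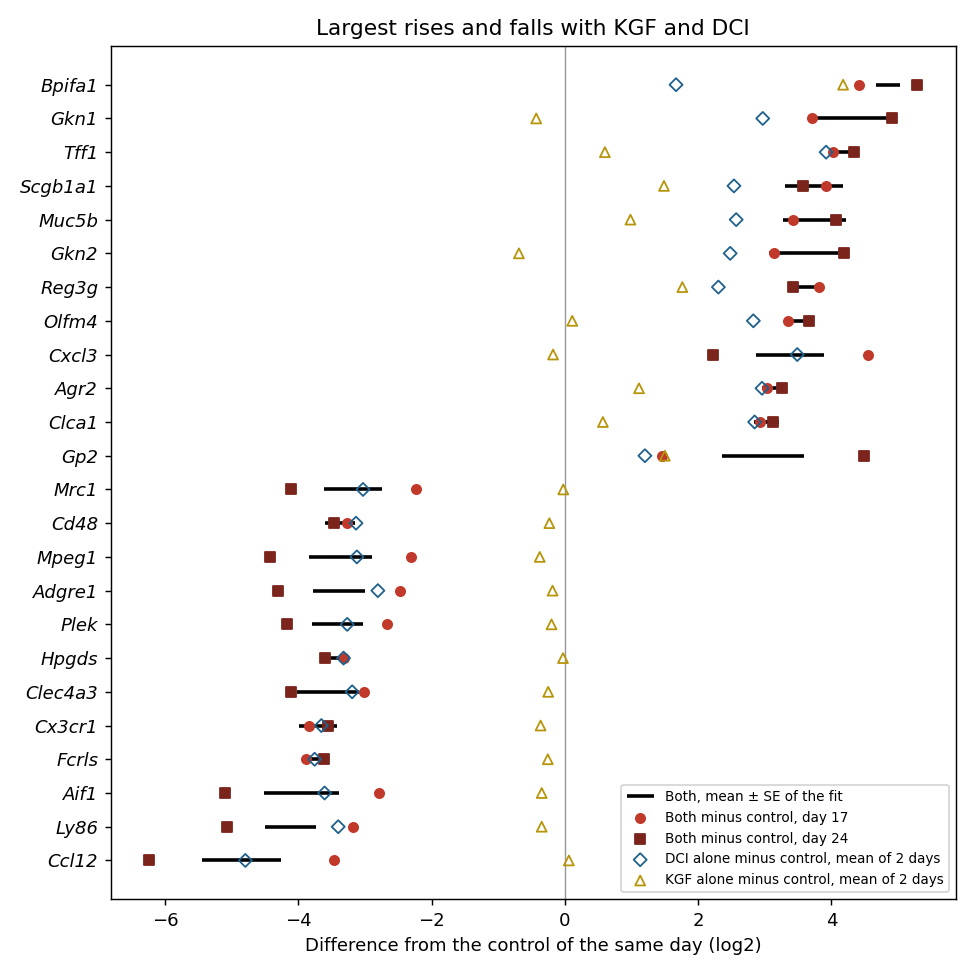
The 12 largest rises and 12 largest falls with KGF and DCI against control, on the log2 scale. Filled points are the differences on day 17 (circles) and day 24 (squares), black bars the mean ± SE of the fit, and open symbols the means for DCI alone (diamonds) and KGF alone (triangles). For each of the 12 falls the DCI diamond lies near the filled points and the KGF triangle near 0, while for Bpifa1 the triangle lies nearest to them.

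Genes of secretory airway cells, which make the mucus and host-defence proteins of the conducting airways, were mostly higher. Of 21 measured, 15 rose and none fell, with a median difference of 1.88 against -0.0075 over all genes. This list and those below were written with earlier results of these data known. Their counts describe these arrays and are no independent support. For this list and each later one, the shares over all genes were 3.72% higher and 2.74% lower. All 4 genes that KGF alone raised are on this list. The list medians were 0.96 with DCI alone and 0.98 with KGF alone. Leaving out each array in turn gave 11 to 16 higher genes. Scgb1a1, the secretoglobin of club cells, was at 7.75 and 9.52 with KGF and DCI, 5.98 and 8.88 with DCI alone, 4.42 and 8.34 with KGF alone and 3.83 and 5.95 in controls. Both arrays with the combination were above both controls, and each single treatment lay between them on its day. It rose by 3.74 ± 0.44 (adjusted p = 0.00328), with 3.14 without the day 17 combined array and 4.34 without that of day 24. The day 17 control, at 3.83, is at the low end of the scale, where a signal cannot be told from background. No fold is given for this reason.

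Muc5b, the gel-forming mucin of airway glands, was at 8.90 and 10.65 with KGF and DCI and 5.47 and 6.59 in controls. The groups did not overlap, and it rose by 3.74 ± 0.47 (adjusted p = 0.00433), a call lost with a variance prior made robust to outlying genes. Agr2, a disulfide isomerase needed for mucin production, was at 9.19 and 10.19 with KGF and DCI, 9.03 and 9.97 with DCI alone, 6.85 and 8.47 with KGF alone and 6.16 and 6.93 in controls. The arrays with DCI were above 9 and the others below 9. Agr2 rose by 3.14 ± 0.18 (adjusted p = 0.000233), and its other probe set gave 2.51. Clca1, a secreted goblet cell protein, rose by 3.03 ± 0.18 (adjusted p = 0.000252), with its other probe set at 0.15. Reg3g, an antibacterial lectin, was at 9.88 and 12.95 with KGF and DCI, 8.46 and 11.75 with DCI alone, 7.61 and 11.52 with KGF alone and 6.07 and 9.53 in controls. On each day all treated arrays were above the control. It rose by 3.62 ± 0.17 with both (adjusted p = 0.000128), 2.30 ± 0.17 with DCI alone and 1.76 ± 0.17 with KGF alone (adjusted p = 0.0435).

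Cxcl17, a mucosal chemokine, completes the 4 genes that KGF alone raised. It was at 8.69 and 10.45 with KGF and DCI, 7.24 and 9.29 with DCI alone, 8.04 and 10.36 with KGF alone and 6.41 and 8.64 in controls. On each day the combination was highest, followed by KGF alone, DCI alone and the control. The rise with both treatments was 2.05 ± 0.14 (adjusted p = 0.000389). The lung chemokine Cxcl15 rose by 2.69 ± 0.33, the immunoglobulin receptor Pigr by 1.88 ± 0.41, the goblet cell factor Spdef by 1.80 ± 0.32 and the mucin Muc5ac by 1.91 ± 0.30. Pigr, Spdef and Muc5ac lost their calls without either the control or the combined array of day 24, and Pigr also without either of those of day 17. The 6 that did not pass, with their differences, were Scgb3a1 at 1.52, Scgb3a2 at 1.34, Ces1d at 0.80, Cyp2f2 at 0.58, Aldh1a7 at 0.47 and Bpifb1 at 0.17.

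Of 20 measured genes of alveolar type II cells, 5 rose and 2 fell, with a median of 0.07. The shares over all genes were 3.72% higher and 2.74% lower. Without the day 17 control 2 rose, and without the day 24 control 3. Those that rose were Sftpc, Sftpa1, Muc1, Napsa and Sftpd. Sftpc encodes the hydrophobic surfactant protein C, the most specific marker of these cells. It was at 8.03 and 7.34 with KGF and DCI, 5.40 and 6.05 with DCI alone, 5.46 and 6.89 with KGF alone and 4.38 and 5.29 in controls. Both arrays with the combination stood above every other array. It rose by 2.85 ± 0.42 (adjusted p = 0.00811), against 0.89 ± 0.42 with DCI alone and 1.34 ± 0.42 with KGF alone, neither of which passed. The day 17 control, at 4.38, is near the low end of the scale, so no fold is given. The departure from the sum was 0.62 ± 0.59 and did not pass. The 2 days differed in this: the combination was far above both single treatments on day 17, and closer to KGF alone on day 24. The other Sftpc probe set gave -0.05, and without the day 17 control the adjusted p was 0.058. The difference was 2.01 without the combined array of day 17 and 3.69 without that of day 24.

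Sftpa1, the lectin surfactant protein A, was at 5.72 and 5.19 with KGF and DCI, 4.23 and 4.11 with DCI alone, 4.06 and 4.28 with KGF alone and 3.97 and 4.08 in controls. Again both arrays with the combination were the highest, and the other 6 lay between 3.97 and 4.28. It rose by 1.43 ± 0.20 (adjusted p = 0.00648), and no fold is given, since the other values are at the low end of the scale, where a signal cannot be told from background. The departure from the sum did not pass, which holds for every gene tested. It therefore does not show that the single effects add up for this gene. Each single treatment was near the control of its day, and only the combination stood apart. Its other probe set gave 0.97, and without the day 17 control the adjusted p was 0.054. All 8 of these values lie below the median of all genes.

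Sftpd, the other lectin, was at 8.41 and 11.00 with KGF and DCI, 6.97 and 10.29 with DCI alone, 7.87 and 11.19 with KGF alone and 7.25 and 10.29 in controls. The groups overlapped across days, but within each day the combination was above the control. It rose by 0.93 ± 0.17 (adjusted p = 0.0194), a call that was lost without the day 17 array with both treatments or without either control. Napsa, the protease that processes surfactant protein B, was at 6.63 and 7.64 with KGF and DCI, 6.36 and 7.55 with DCI alone, 5.51 and 6.51 with KGF alone and 5.69 and 6.42 in controls. The arrays with DCI were above the others of their day. It rose by 1.08 ± 0.15 (adjusted p = 0.00582), with its other probe set at 0.32, and the call was lost without the day 24 control or the day 24 array with both treatments. Muc1, a surface mucin, rose by 1.38 ± 0.16 (adjusted p = 0.00328).

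Sftpb, surfactant protein B, was at 6.32 and 6.23 with KGF and DCI, 5.44 and 5.92 with DCI alone, 5.38 and 5.85 with KGF alone and 5.54 and 5.81 in controls. The combination was highest on both days, but the difference of 0.60 ± 0.18 did not pass (adjusted p = 0.101). The lamellar body lipid transporter Abca3 differed by 0.01 ± 0.10, the phosphate transporter Slc34a2 by 0.08 ± 0.24 and the FGF-responsive factor Etv5 by -0.34 ± 0.16, and none of these passed. The members that fell were Lyz2, a lysozyme gene that macrophages also express, by 3.01, and the lipid receptor Cd36 by 1.17. Lyz2 is also on the macrophage list described further on, and its call was lost without the day 24 control or the day 24 array with both treatments.

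Nkx2-1, the factor that marks lung endoderm, was at 4.66 and 4.47 with KGF and DCI, 4.66 and 5.00 with DCI alone, 4.77 and 4.57 with KGF alone and 4.48 and 4.83 in controls. All 8 values were in the lower part of the scale, the groups overlapped, and the difference of -0.09 ± 0.20 did not pass. Of 21 measured lung and foregut factors 4 rose and 1 fell, against 3.72% and 2.74% of all genes, with a median of 0.31. The endoderm factor Foxa2 was at 7.70 and 8.35 with KGF and DCI and 6.98 and 7.26 in controls, without overlap. It rose by 0.90 ± 0.14 (adjusted p = 0.0102). Foxa3 rose by 1.04 ± 0.15, Foxa1 by 0.52 ± 0.11 and Irx3 by 0.48 ± 0.11, and the heart and lung mesenchyme factor Tbx5 fell by 0.57. None of the factors passed without the day 24 control or the day 24 array with both treatments, and 2 rose without any 1 of the day 17 control, the day 17 combined array or the DCI arrays. The calls of Foxa1 and Irx3 were lost when any 1 array other than those with KGF alone was left out, and that of Tbx5 without any 1 of the 8 arrays.

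**Figure D2:**
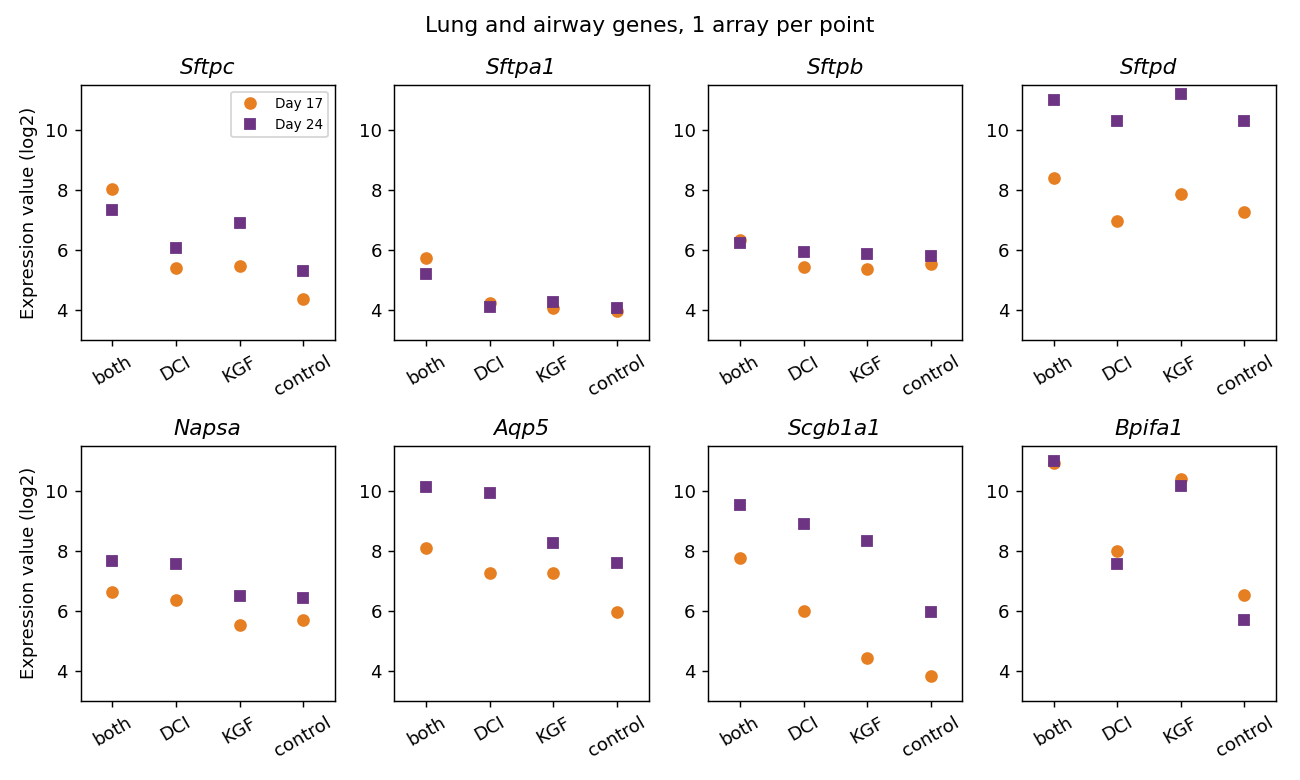
Levels of 8 lung and airway genes on the log2 scale, with 1 point per array: both treatments, DCI alone, KGF alone and control from left to right, day 17 as circles and day 24 as squares. Sftpa1 stands near 4 everywhere except with both treatments, Bpifa1 is high wherever KGF was given, and Napsa and Aqp5 on day 24 are high wherever DCI was given.

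Among 15 genes of alveolar type I cells 4 rose and none fell, against 3.72% and 2.74% of all genes, with a median of 0.10. The water channel Aqp5, also present in glands and airways, was at 8.08 and 10.12 with KGF and DCI, 7.27 and 9.92 with DCI alone, 7.27 and 8.26 with KGF alone and 5.97 and 7.60 in controls. Both arrays with the combination were above both controls, while the single treatments overlapped with the controls across days. It rose by 2.32 ± 0.32 (4.98-fold, adjusted p = 0.00648), a call lost without the day 24 control or the day 24 array with both treatments. The tight junction gene Cldn18 was at 7.06 and 7.99 with KGF and DCI and 6.00 and 5.36 in controls, and rose by 1.85 ± 0.35 (adjusted p = 0.0211; other probe set 0.82), with 2.51 without the day 17 control and 1.18 without that of day 24, where the call was lost. It was lost as well without the day 24 combined array, with the robust prior and with the mean of probe sets. Both values with the combination exceeded both controls. The receptor gene Ager rose by 0.67 ± 0.12 (adjusted p = 0.0215) and Emp2 by 0.35 ± 0.07. The podoplanin gene Pdpn differed by 0.10 ± 0.08 and the homeodomain gene Hopx by 0.28 ± 0.20, and neither passed. No type I gene passed without the day 24 control or the day 24 array with both treatments, and 2 passed without the day 17 control or the day 17 array with both. The call of Ager was lost in each of these cases, and that of Emp2 also without either DCI array.

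General epithelial genes, those of adhesion, tight junctions, keratins and epithelial factors, rose in 20 of 27 cases, and none fell. Their median difference was 0.68 with both treatments, 0.37 with DCI alone and 0.32 with KGF alone. E-cadherin, Cdh1, was at 10.78 and 11.31 with KGF and DCI, 10.49 and 10.92 with DCI alone, 10.57 and 10.90 with KGF alone and 10.16 and 10.57 in controls. Within each day the combination was highest and the control lowest, and both arrays with the combination were above both controls. It rose by 0.68 ± 0.07 (adjusted p = 0.00284), and the departure from the sum was -0.03 ± 0.11. The adhesion gene Epcam was at 11.18 and 11.90 with KGF and DCI, 10.92 and 11.57 with DCI alone, 10.85 and 11.11 with KGF alone and 10.47 and 10.91 in controls. On both days the combination was highest and the control lowest. Epcam rose by 0.85 ± 0.11 (adjusted p = 0.00514), a call lost without the day 24 control or the day 24 array with both treatments.

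The epithelial factors Klf5, Elf3 and Ehf rose by 1.13 ± 0.09, 1.12 ± 0.13 and 1.05 ± 0.12. Other probe sets gave 0.0004 to 0.55 for Klf5 and -0.02 to 0.85 for Ehf. The splicing factor Esrp1 rose by 0.77 ± 0.15, the junction gene Cldn4 by 0.68 ± 0.11, and the keratins Krt8 and Krt18 by 0.63 ± 0.08 and 0.71 ± 0.08. The members that did not pass, with their differences, were Ovol1 at 0.68, Grhl1 at 0.45, Krt19 at 0.38, Ovol2 at 0.09, Krt7 at 0.08, Cdh3 at -0.07 and Cldn6 at -0.16. Of the 27, 12 passed without the day 17 control, 9 without the day 24 control and 8 without the day 24 array with both treatments. Esrp1 and Cldn4 lost their calls in each of these cases.

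**Figure D3:**
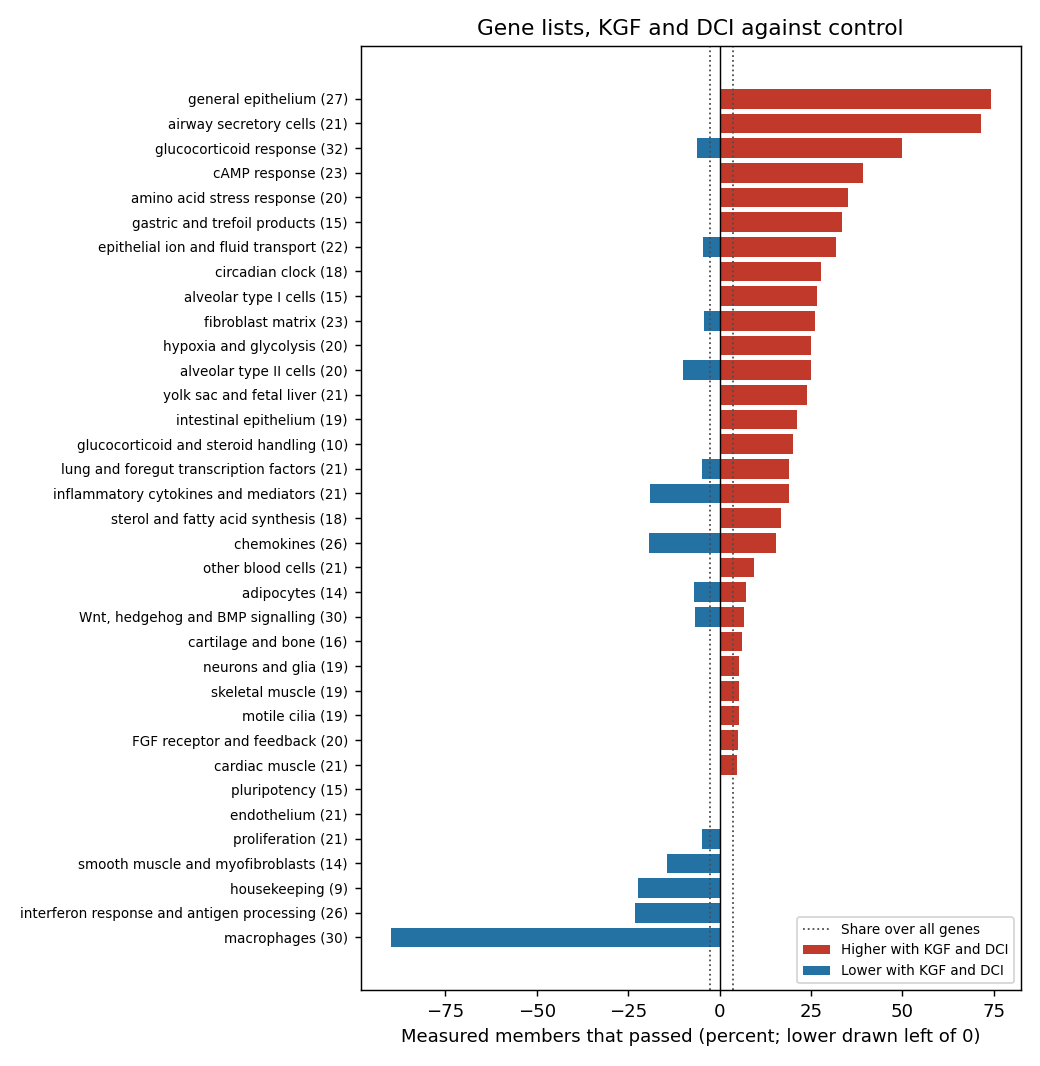
Share of the measured members of each list that passed with KGF and DCI against control, higher to the right and lower to the left of 0, with the number measured in parentheses. Dotted lines mark the shares over all genes, 3.72% higher and 2.74% lower. General epithelium and airway secretory cells reach farthest right, and macrophages farthest left.

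Of 15 measured gastric and trefoil genes, 5 rose and none fell, against 3.72% and 2.74% of all genes. Their median was 0.67 for both treatments, 1.79 for DCI alone and -0.01 for KGF alone. Gkn1, a gastrokine of the stomach surface, was at 10.97 and 12.99 with KGF and DCI, 8.80 and 12.48 with DCI alone, 5.57 and 8.91 with KGF alone and 7.26 and 8.07 in controls. Both arrays with the combination were above both controls, and on each day above DCI alone. It rose by 4.31 ± 0.59 (19.8-fold, adjusted p = 0.00586), with 5.41 without the day 17 control and 3.21 without the day 24 control, while its other probe set gave 4.64, and the call was lost with the same robust prior. Gkn2 was at 11.88 and 13.52 with KGF and DCI, 9.97 and 13.08 with DCI alone, 6.62 and 10.09 with KGF alone and 8.75 and 9.34 in controls. Its difference from DCI alone was larger on day 17 than on day 24. Gkn2 rose by 3.66 ± 0.59 (adjusted p = 0.012), with 4.73 without the day 17 control and 2.58 without the day 24 control, a call lost without the day 17 array with both treatments or without the day 24 control or combined array.

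Tff1, a trefoil peptide that stabilises mucus, was at 12.13 and 13.14 with KGF and DCI, 11.88 and 12.86 with DCI alone, 8.43 and 9.67 with KGF alone and 8.11 and 8.79 in controls. The 4 arrays with DCI were above 11 and the others below 10. It rose by 4.18 ± 0.12 with both treatments (18.2-fold, adjusted p = 1.76e-05) and by 3.92 ± 0.12 with DCI alone. Tff2 rose by 2.58 ± 0.15 and Tff3 by 2.10 ± 0.20. The acid pump, hormone and intrinsic factor genes of the stomach did not pass. The proton pump subunits Atp4a and Atp4b differed by 0.18 and -0.04, gastrin (Gast) by -0.23, and intrinsic factor (Cblif) by 0.67, with 2.32 for DCI alone. The pepsinogen gene Pgc, described further on, was highest in the day 24 arrays with DCI and did not pass either.

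Of 19 intestinal genes 4 rose and none fell, against 3.72% and 2.74% of all genes. Their median was 0.42 for the combination and 0.73 for DCI alone. Without either KGF array 7 rose. Olfm4, a marker of intestinal crypts, was at 9.67 and 10.51 with KGF and DCI, 8.99 and 9.84 with DCI alone, 6.04 and 7.35 with KGF alone and 6.32 and 6.85 in controls. The 4 arrays with DCI were the 4 highest. It rose by 3.51 ± 0.17 (adjusted p = 0.000128). The goblet cell genes Spink4 and Muc2 rose by 2.90 ± 0.10 and 2.21 ± 0.26, and Reg4 by 1.63 ± 0.18. The enterocyte lipid carriers Fabp1 and Fabp2 differed by -1.07 and -1.61 and did not pass. Cdx2, the intestinal master factor, differed by 0.31 with both treatments and by 1.16 with DCI alone. Its difference between the combination and DCI alone did not pass.

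Motile cilium genes, which multiciliated cells use to build their cilia, had 1 higher gene of 19, Tppp3 (0.70 ± 0.14), whose call was lost without either DCI array, the day 17 control or the day 17 array with both treatments. Without the day 24 control 2 genes rose. Over all genes 3.72% were higher, and 1 gene of 19 is near that share. The list median was 0.48 with both treatments, -0.15 with DCI alone and 0.78 with KGF alone. Foxj1, the factor for motile cilia, was at 6.70 and 5.98 with KGF and DCI, 5.67 and 5.73 with DCI alone, 6.64 and 7.14 with KGF alone and 5.81 and 5.87 in controls. It was higher with the combination on day 17 and close to the control on day 24. The difference of 0.50 ± 0.26 did not pass.

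Transport genes of epithelia had 7 higher and 1 lower member of 22, with a median of 0.34. Cftr, the cyclic AMP-activated chloride channel, was at 6.59 and 6.13 with KGF and DCI, 6.97 and 5.96 with DCI alone, 5.98 and 5.35 with KGF alone and 5.95 and 4.49 in controls. The combination was above the control on each day. It rose by 1.14 ± 0.24 (adjusted p = 0.0312), with its other probe set at -0.07, and the call was lost without either DCI array, the day 24 control or the day 24 array with both treatments. The carbonic anhydrase Car12 rose by 1.71 ± 0.22, the epithelial sodium channel subunit Scnn1a by 0.62 ± 0.13 and the chloride channel Clcn2 by 0.95 ± 0.22. Atp1b3, a sodium pump subunit, fell by 0.42. With the day 24 control left out 1 gene rose, and with the day 24 combined array 2. It was 3 without the control or the combined array of day 17, and 4 without either DCI array. Car12 lost its call without the day 24 control or combined array, Atp1b3 without any 1 of the 4 arrays compared, and Scnn1a and Clcn2 when any 1 array other than those with KGF alone was left out.

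Of 32 measured targets of the glucocorticoid receptor, 16 rose and 2 fell with the combination, against 3.72% and 2.74% of all genes. With DCI alone 14 rose and 1 fell. The medians were 0.45 for both treatments, 0.53 for DCI alone and -0.01 for KGF alone. Tsc22d3, the glucocorticoid-induced leucine zipper, was at 9.18 and 9.59 with KGF and DCI, 9.47 and 9.67 with DCI alone, 8.04 and 8.17 with KGF alone and 7.82 and 8.07 in controls. The 4 arrays with DCI were above 9 and the others below 8.2. It rose by 1.44 ± 0.10 (adjusted p = 0.000389), with other probe sets at 0.16 to 1.29. Fkbp5, a co-chaperone of the receptor, was at 9.01 and 9.21 with KGF and DCI, 9.42 and 9.30 with DCI alone, 7.70 and 7.20 with KGF alone and 7.99 and 7.04 in controls. It rose by 1.59 ± 0.24 (adjusted p = 0.00844), with other probe sets at 0.02 to 0.59, and the arrays with DCI were above all others. The factors Klf15 and Zbtb16 rose by 1.55 ± 0.20 and 1.42 ± 0.17. The count of higher genes was 6 without the day 24 array with both treatments, where Fkbp5 lost its call, 8 without the day 17 control, and 9 without the day 24 control or the day 17 array with both. It was 8 with no lower gene when variances were moderated without a mean trend, and 9 with no lower gene for the mean of the probe sets, where Fkbp5 also lost its call.

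Those that fell were Gadd45b by 0.56 and Angptl4 by 0.35. The call of Angptl4 was lost when any 1 array other than those with KGF alone was left out, and that of Gadd45b in the same cases except the day 24 combined array. The phosphatase gene Dusp1 differed by 0.16, the inhibitor Nfkbia by -0.01 and the glutamine synthetase gene Glul by -0.06, and these did not pass. The receptor gene itself, Nr3c1, was at 8.75 and 8.67 with KGF and DCI and at 8.98 and 8.98 in controls, a difference of -0.27 ± 0.13 that did not pass. Among 10 genes of steroid handling 2 rose (median 0.14). Hsd11b1, the enzyme that regenerates active glucocorticoid, was at 8.96 and 10.53 with KGF and DCI, 9.0 and 10.59 with DCI alone, 6.62 and 9.44 with KGF alone and 6.57 and 9.15 in controls. Within each day it was higher with DCI than without, while across days the groups overlapped. With both treatments it rose by 1.88 ± 0.30 (adjusted p = 0.0116). The call was lost without the control or the combined array of day 17. The drug exporter gene Abcb1b rose by 0.95 ± 0.16, a call lost without the control or the combined array of day 24. So 1 of the 2 passed in each of these cases.

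Cyclic AMP response genes had 9 higher and 0 lower members of 23, against 3.72% and 2.74% of all genes. Their medians were 0.48 for both treatments, 0.46 for DCI alone and -0.01 for KGF alone. Pde4d, a phosphodiesterase that degrades cyclic AMP, was at 8.18 and 8.47 with KGF and DCI, 8.27 and 8.37 with DCI alone, 6.53 and 6.52 with KGF alone and 6.50 and 6.74 in controls. The 4 arrays with DCI were above 8 and the others below 7. It rose by 1.7 ± 0.12 (adjusted p = 0.000461), with its other probe set at -0.04. Pde7b and Pde4b rose by 1.81 ± 0.25 and 1.42 ± 0.14, and the nuclear receptor Nr4a2 by 1.48 ± 0.15. The early genes Fos, Fosb and Junb differed by 0.09, 0.22 and 0.24 and the repressor Crem by -0.22 ± 0.20, and none of these passed. The list had 5 higher genes without the day 24 control or the day 24 array with both treatments. Of 18 clock genes 5 rose and none fell (median 0.22): Per1 by 1.32 ± 0.11, Per2 by 1.19 ± 0.18, Nfil3 by 0.78 ± 0.14, Bhlhe40 by 0.67 ± 0.08 and Cry2 by 0.59 ± 0.12. Clock genes that passed were 2 without the day 24 control or combined array and 3 without the day 17 control. Per2 lost its call in each of these cases, Nfil3 in those of day 24, and Cry2 when any 1 array other than those with KGF alone was left out.

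Promoter windows of RefSeq (assembly GRCm38.p6, 250 bases before to 50 after the start of a gene) were searched on both strands for the palindromes that both pathways are known to use. The cyclic AMP response element TGACGTCA was found in 422 of 14452 measured genes with a window (2.92%), in 15 of 500 genes higher with both treatments (3.0%) and in 5 of 391 lower ones (1.28%). It was in 1 of 18 genes of the cyclic AMP list, Dusp1, and in 2 of 27 of the glucocorticoid list. The glucocorticoid response element, AGAACA and TGTTCT separated by 3 bases, was found in 2 of 14452 windows (0.0138%) and in 1 of the 500 higher genes. A match describes the letters and is no evidence of binding. The windows of Sgk1, a kinase that stimulates sodium transport, and of Errfi1, an inhibitor of the EGF receptor, are shown because both genes rose and hold a match, which is in capitals.
Sgk1, chr10:21993640-21993939, plus strand: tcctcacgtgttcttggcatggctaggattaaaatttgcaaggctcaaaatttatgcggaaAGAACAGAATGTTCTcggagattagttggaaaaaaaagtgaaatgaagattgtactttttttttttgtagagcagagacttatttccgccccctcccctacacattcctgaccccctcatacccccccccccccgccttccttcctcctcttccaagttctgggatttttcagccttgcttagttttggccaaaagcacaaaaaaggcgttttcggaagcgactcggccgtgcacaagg
Errfi1, chr4:150854820-150855119, plus strand: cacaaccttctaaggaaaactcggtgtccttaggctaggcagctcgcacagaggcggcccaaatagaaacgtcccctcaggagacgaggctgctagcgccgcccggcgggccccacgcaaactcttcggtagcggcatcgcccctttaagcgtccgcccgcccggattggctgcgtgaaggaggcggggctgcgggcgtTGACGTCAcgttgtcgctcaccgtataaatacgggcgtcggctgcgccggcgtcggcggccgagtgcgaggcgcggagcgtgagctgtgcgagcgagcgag
The match starts at position -189 from the gene start in Sgk1 and at -51 in Errfi1. Sgk1 was at 9.54 and 10.30 with KGF and DCI, 9.53 and 9.95 with DCI alone, 8.64 and 9.46 with KGF alone and 8.72 and 9.47 in controls, and rose by 0.83 ± 0.11 (adjusted p = 0.00549). Errfi1 was at 9.60 and 11.01 with KGF and DCI, 9.55 and 10.31 with DCI alone, 9.15 and 9.55 with KGF alone and 9.03 and 9.33 in controls, and rose by 1.13 ± 0.23 (adjusted p = 0.0315). In both genes the 2 arrays with the combination were above both controls. Sgk1 lost its call without the day 24 array with both treatments, and Errfi1 without that array, the day 24 control or either DCI array. Hlf, a clock output factor whose window also holds the cyclic AMP element, differed by 0.53 and did not pass.

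Over all genes 3.72% were higher. The FGF pathway, through which KGF signals, had 1 higher and no lower member of 20, near that share, with a median of 0.21. That gene was the ligand Fgf10, at 5.86 and 6.98 with KGF and DCI, 6.33 and 6.89 with DCI alone, 5.00 and 5.93 with KGF alone and 5.00 and 5.59 in controls. Within each day it was higher with DCI than without, while across days the groups overlapped. The rise was 1.13 ± 0.18 (adjusted p = 0.011), and the call was lost without the day 24 control or combined array. Without either KGF array 2 genes of the pathway rose. The receptor Fgfr2 differed by 0.16 ± 0.12, and the feedback genes Dusp6, Spry4 and Etv4 by -0.11, -0.16 and -0.10, and none of these passed.

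**Figure D4:**
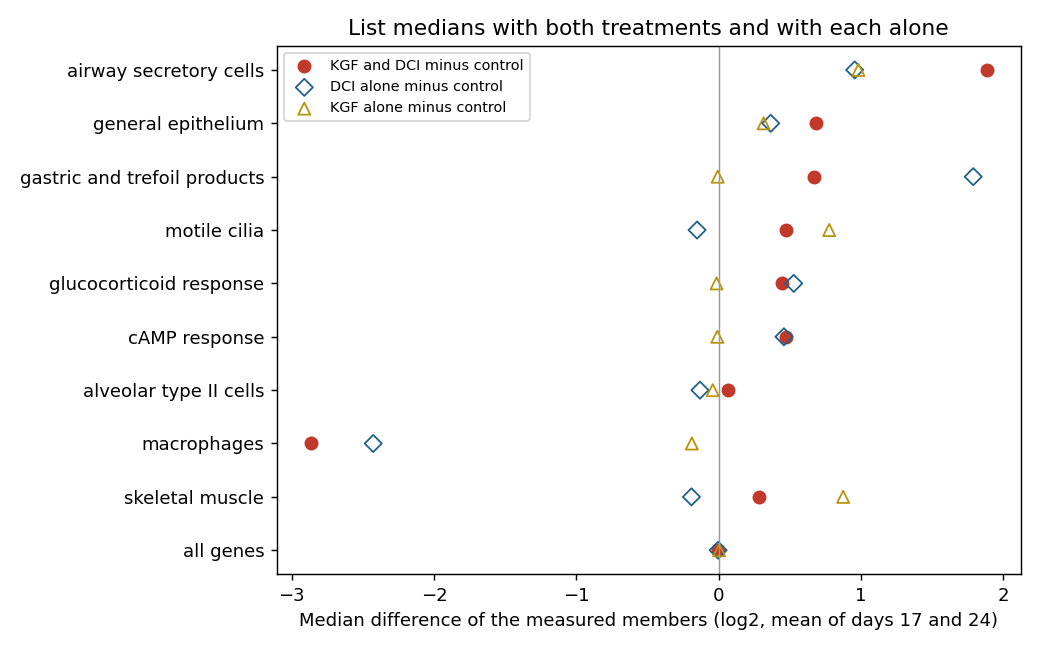
Median difference from control of the members of 9 lists and of all genes, with both treatments (filled), DCI alone (diamonds) and KGF alone (triangles), on the log2 scale and as the mean of days 17 and 24. Airway and general epithelium have both open symbols near each other and midway between 0 and the filled one, macrophages have the DCI symbol near the filled one, and motile cilia and skeletal muscle have the KGF symbol farthest right.

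Macrophage genes were lower in cultures with both treatments. Of 30 measured, 27 fell and none rose, with a median difference of -2.87, against -2.43 with DCI alone and -0.19 with KGF alone. The median level of the 30 genes was 6.92 and 5.68 with KGF and DCI, 7.22 and 5.99 with DCI alone, 9.41 and 9.08 with KGF alone and 9.52 and 9.50 in controls. Leaving out the day 24 control left 19 lower genes, leaving out the day 24 array with both treatments left 15, and the robust prior gave 18. Csf1r, the receptor for the growth factor that keeps macrophages alive, was at 9.75 and 8.80 with KGF and DCI, 10.05 and 9.08 with DCI alone, 11.78 and 11.12 with KGF alone and 11.81 and 11.48 in controls. The arrays with DCI were all lower than those without. It fell by 2.37 (SE 0.15, adjusted p = 0.000282), and other probe sets gave -2.35 to -1.48.

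Fcrls, an Fc receptor-like gene, was at 5.68 and 5.28 with KGF and DCI, 5.95 and 5.00 with DCI alone, 9.35 and 8.59 with KGF alone and 9.57 and 8.89 in controls. The difference was -3.75 ± 0.15 (adjusted p = 3.59e-05), and the groups with and without DCI were more than 2 apart. Cx3cr1, the fractalkine receptor, was at 5.16 and 4.95 with KGF and DCI and 9.01 and 8.51 in controls, a difference of -3.70 ± 0.28 (adjusted p = 0.00063), with its other probe set at -1.62. Adgre1, an adhesion receptor used as a macrophage marker, was at 7.0 and 5.07 with KGF and DCI, 7.34 and 5.90 with DCI alone, 9.46 and 9.02 with KGF alone and 9.48 and 9.38 in controls. It was lowest in the day 24 array with both treatments, and the difference was -3.39 ± 0.39 (adjusted p = 0.00313). Others among the 12 largest falls were Ly86 (-4.12 ± 0.38), Aif1 (-3.95 ± 0.57), Clec4a3 (-3.56 ± 0.46), Hpgds (-3.46 ± 0.18), Plek (-3.42 ± 0.38), Mpeg1 (-3.37 ± 0.47), the leukocyte antigen Cd48 (-3.37 ± 0.22) and the mannose receptor Mrc1 (-3.18 ± 0.44). Of these, Aif1, Clec4a3, Mpeg1 and Mrc1 lost their calls without the day 24 array with both treatments, and Aif1 and Clec4a3 also without the day 24 control. With 1 array left out, differences ran from -4.85 to -3.40 for Ly86, -4.74 to -3.16 for Aif1, -4.03 to -2.76 for Adgre1, -4.11 to -2.64 for Mpeg1, -3.92 to -2.43 for Mrc1, -3.97 to -2.06 for Lyz2, -4.00 to -1.83 for C1qc and -2.83 to -1.56 for Alox5ap, nearer 0 without an array of day 24. The members that did not pass, with their differences, were the haptoglobin scavenger receptor Cd163 at 0.92, which glucocorticoids are known to induce, the endotoxin co-receptor Cd14 at 0.43 and Msr1 at -0.75.

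Chemokines went both ways, with 4 of 26 higher and 5 lower (median -0.0038). The chemokines Cxcl15 and Cxcl17, which also rose, are counted with the airway genes and not here. Ccl12, which attracts monocytes, was at 4.14 and 3.12 with KGF and DCI, 3.94 and 3.44 with DCI alone, 8.02 and 9.07 with KGF alone and 7.61 and 9.36 in controls. Arrays with and without DCI were more than 3 apart. It showed the largest fall of all, -4.85 ± 0.59 (adjusted p = 0.00375), with -5.81 without the day 17 control and -3.90 without the day 24 control. Its values with DCI, from 3.12 to 4.14, are at the low end of the scale, where a signal cannot be told from background. The size of this fall is therefore uncertain. Ccl3 fell by 2.96, Ccl4 by 1.46, Ccl2 by 1.03 and Ccl6 by 1.02. Cxcl3, which attracts neutrophils, was at 7.15 and 7.65 with KGF and DCI, 7.28 and 7.73 with DCI alone, 3.11 and 4.57 with KGF alone and 2.60 and 5.43 in controls. It was above 7 wherever DCI was given. The day 17 values without DCI, 3.11 and 2.60, are at the same low end of the scale. The rise was 3.38 ± 0.51 (adjusted p = 0.00906), a call lost without the day 17 array with both treatments, and it was 2.37 without the day 17 control and 4.40 without that of day 24. Ccl11, an attractant of eosinophils, rose by 1.83 ± 0.20, Cx3cl1 by 0.71 ± 0.16 and Cxcl5 by 0.43 ± 0.08. With arrays left out, 1 rose and 4 fell without the day 17 combined array, 2 rose and 2 fell without the day 24 combined array, and 3 rose and 2 fell without the day 24 control. Ccl4, Ccl2 and Ccl6 lost their calls without the control or combined array of day 24, Ccl2 also without the day 17 control and Ccl6 without the day 17 combined array. Cx3cl1 and Cxcl5 lost theirs when any 1 array other than those with KGF alone was left out.

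Cytokines and lipid mediators had 4 of 21 members higher and 4 lower (median -0.06). Il6, a cytokine of the acute phase, was at 7.53 and 9.79 with KGF and DCI, 7.80 and 9.38 with DCI alone, 5.82 and 7.76 with KGF alone and 5.72 and 7.85 in controls, and rose by 1.87 ± 0.16 (adjusted p = 0.00105). Within each day the arrays with DCI were higher, while across days the groups overlapped. Ptges, the prostaglandin E synthase, rose by 1.23 ± 0.13, Il33 by 0.82 ± 0.09 and Tgfb2 by 0.73 ± 0.14. Alox5ap, needed for leukotriene synthesis, fell by 2.20, Il18 by 1.10, Tnf by 1.09 and Csf1 by 0.79. Interferon and antigen-processing genes had 6 of 26 lower and none higher, with a median of -0.19. The proteasome subunits Psmb8 and Psmb9 fell by 1.25 and 1.11 (other Psmb8 probe set 0.01), the myeloid factor Irf8 by 0.84 and B2m by 0.52. Without the day 24 control or the day 24 combined array 1 of these 6 passed, and 1 of the 4 lower mediators. Alox5ap, Il18, Tnf, Psmb9, Irf8, B2m and Tgfb2 lost their calls in both cases, Tnf and Irf8 also without the day 17 combined array, and Tgfb2 without the day 17 control. Macrophage levels moved with these lists, as given above, and their part in them was not tested.

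Other cell types that such cultures can hold were followed by their markers. Over all genes 3.72% were higher and 2.74% lower, and a list here with 1 call is near these shares. Of 21 endothelial genes none passed, and their median was 0.06 on day 17 and -0.79 on day 24. With an additive model on all 10 arrays 2 rose and 1 fell. Pecam1, the endothelial adhesion gene, was at 6.61 and 4.58 with KGF and DCI, 6.38 and 5.41 with DCI alone, 6.37 and 6.63 with KGF alone and 6.55 and 6.53 in controls. It was low in both arrays of day 24 with DCI, and its difference of -0.95 ± 0.48 did not pass. Of 14 smooth muscle genes 2 fell (median -0.12), the actin-binding gene Tagln by 0.75 and the actin Acta2 by 0.46, with other Acta2 probe sets at -0.22 to 0.03. Of 21 cardiac genes (median 0.23) the myosin Myh6 rose (0.45), and of 19 skeletal muscle genes the troponin Tnnt3 rose (0.52). The skeletal muscle median was 0.28 with both treatments, -0.19 with DCI alone and 0.88 with KGF alone, and Myog, the myogenic factor, was at 8.22 and 9.91 with KGF and DCI, 7.67 and 9.21 with DCI alone, 9.76 and 9.82 with KGF alone and 7.24 and 9.72 in controls. The 21 other blood cell genes had 2 higher (median -0.10), the neutrophil gene S100a8 (1.63 ± 0.24) and the receptor Kit (0.99 ± 0.20). Of 19 neuronal and glial genes (median -0.07) Stmn2 rose (1.86 ± 0.19). None of 15 pluripotency genes passed (median 0.32, with 0.68 on day 17 and 0.06 on day 24). Calls were lost for Tagln without the day 17 control, for S100a8 without the day 24 control or combined array, for Kit without any 1 of the controls, the DCI arrays and the day 17 combined array, and for Acta2, Myh6 and Tnnt3 when any 1 array other than those with KGF alone was left out.

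Of 21 yolk sac and fetal liver genes 5 rose and none fell (median 0.26). They were the plasma proteins Ahsg (1.7 ± 0.18), Fgb (1.51 ± 0.24), Fga (1.46 ± 0.29), Fgg (1.43 ± 0.21) and Alb (0.74 ± 0.17). The fibrinogen gene Fgg was at 10.19 and 9.38 with KGF and DCI, 10.19 and 9.48 with DCI alone, 8.07 and 8.22 with KGF alone and 8.51 and 8.21 in controls, so the arrays with DCI were the highest. The list's median was 0.87 on day 17 and -0.39 on day 24. With either control left out 1 gene rose, and without the day 17 combined array 2, with Fgb and Fga among those lost in each case. Fgg was lost without either control, and Alb when any 1 array other than those with KGF alone was left out. Matrix genes of fibroblasts had 6 higher and 1 lower of 23 (median 0.08), with the gelatinase Mmp2 higher by 0.63 ± 0.10, the collagen Col1a1 by 0.62 ± 0.13 (other probe set 0.04) and Thbs2 lower by 0.66. Higher matrix genes numbered 0 without the day 24 combined array, 1 without either control and 2 without the day 17 combined array. Mmp2 lost its call without the control or combined array of day 24, Col1a1 without either of these or the day 17 control, and Thbs2 without the day 17 control or the day 24 combined array. Of 16 cartilage and bone genes (median 0.15) the hedgehog ligand Ihh rose (0.95 ± 0.16), and of 14 adipocyte genes (median -0.01) the triglyceride synthase Dgat2 rose (0.80 ± 0.13) and Cd36 fell. Over all genes 3.72% were higher and 2.74% lower, so 1 call in lists this small is near these shares. Ihh lost its call without the day 24 control or either combined array, and Dgat2 without the control or combined array of day 17.

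Amino acid stress genes had 7 of 20 higher (median 0.37), led by Cth, which makes cysteine (1.39 ± 0.16), and Trib3 (0.85 ± 0.16). Hypoxia and glycolysis genes had 5 of 20 higher (median 0.24), among them Ndrg1 (1.02 ± 0.16) and Vegfa (0.75 ± 0.09). Sterol and fatty acid synthesis genes had 3 of 18 higher (median 0.21): Insig1 (0.66 ± 0.10), Lss (0.60 ± 0.12) and Scd2 (0.44 ± 0.08). Without the day 24 control these counts were 1, 2 and 0, and without the day 24 combined array 1, 3 and 0. Without the day 17 control the first was 3 and the third 0, and without the day 17 combined array the first was 2 and the second 3. Leaving out either KGF array gave 5 sterol genes. Cth and Vegfa kept their calls throughout, Ndrg1 lost its call without either control or the day 17 combined array, Insig1 and Scd2 without either control or the day 24 combined array, Lss without any 1 of these or the DCI arrays, and Trib3 without any 1 of both combined arrays, the DCI arrays and the day 24 control. Of 30 Wnt, hedgehog and BMP genes (median 0.03) the Wnt inhibitor Wif1 (1.07 ± 0.22) and Wnt4 (0.82 ± 0.16) rose and Id3 and Bmp4 fell by 0.60 and 0.59. None of these 4 passed without the day 24 control or combined array, and 1 of the 30 passed without the day 17 control. Of 21 proliferation genes (median -0.20) Mki67 fell by 0.43. Over all genes 3.72% were higher and 2.74% lower, and the single proliferation call is near the latter. Differences of the 21 mostly lay below 0, with 2 above 0. Lower on both days were 14 of them, against 5873 of all 18193 genes. Their median was -0.08 on day 17 and -0.31 on day 24. Of 9 housekeeping genes B2m and Actb fell by 0.52 and 0.28, and the other 7 lay between -0.10 and 0.15. Mki67 and Actb lost their calls when any 1 array other than those with KGF alone was left out, and B2m without the day 24 control or combined array.

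The combined difference was also set side by side between the days. Against the control of the same day, the difference was larger on day 24 than on day 17 (more positive) for 53 genes (0.291%) and more negative for 184 (1.01%). Each group and day is 1 array, so this test has 1 residual degree of freedom and takes its spread from the fit over all 8 arrays and mostly from a prior over all genes. No gene passed when variances were moderated without a mean trend, and the values below are given as a description. The macrophage list had a median of -2.03 on day 17 and -3.58 on day 24. C1qc, a complement subunit made by macrophages, was at 8.64 and 6.23 with KGF and DCI and 10.05 and 10.65 in controls. Its difference was -1.41 on day 17 and -4.42 on day 24. The rise of Cxcl3 was smaller on day 24, with 4.55 on day 17 and 2.22 on day 24, and its control was at 2.60 on day 17 and 5.43 on day 24. That day 17 control is at the low end of the scale, where a signal cannot be told from background. Gp2, a glycoprotein of pancreas and of gut M cells, was at 4.94 and 8.45 with KGF and DCI, 4.09 and 5.77 with DCI alone, 3.71 and 6.74 with KGF alone and 3.48 and 3.97 in controls. Its rise of 2.97 ± 0.62 (adjusted p = 0.0324; 4.10 without the day 17 control and 1.84 without the day 24 control) was mostly on day 24 and lost its call without any of 4 arrays, those of day 24 except KGF and the day 17 DCI array, and the mean difference of C1qc lost its call in the same cases.

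**Figure D5:**
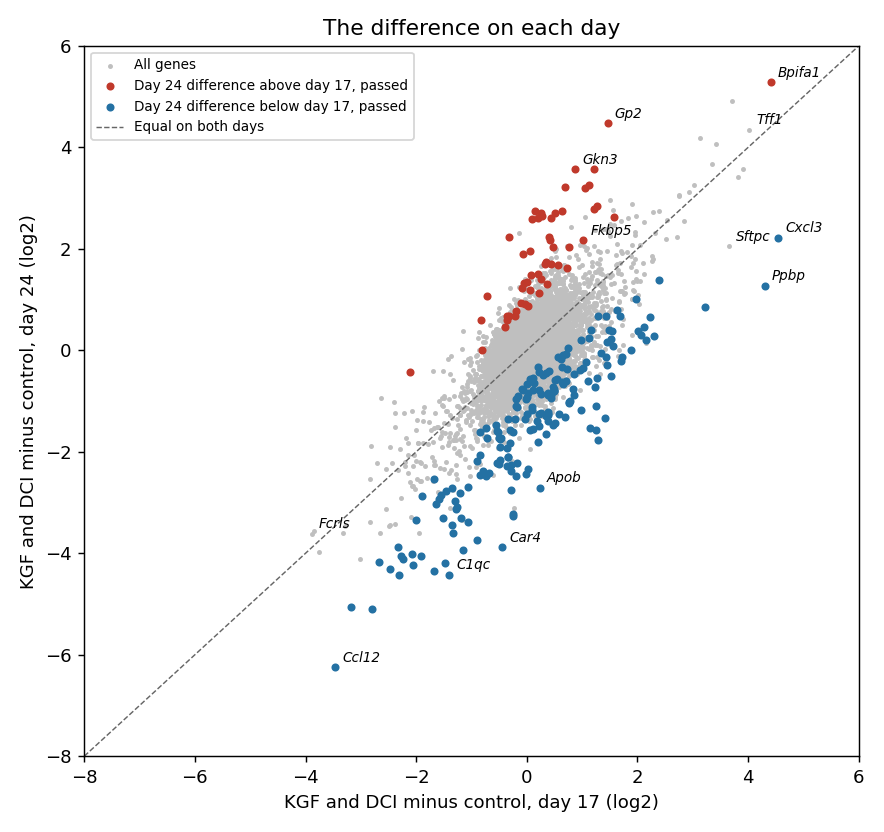
Difference between KGF and DCI and control on day 17 (horizontal) and day 24 (vertical), log2, with 1 point per gene. Coloured points passed the test of the change between days, red where day 24 is above day 17 and blue where it is below. The dashed line marks equal differences, and Ccl12, C1qc and Car4 lie far below it.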

How the data were processed

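RNA of 10 samples was measured on Affymetrix mouse arrays, 1 array per condition and day. Per the labels' protocols, RNA was extracted with RNeasy columns and DNase and labelled with a One-Cycle kit, and per the submitters' processing notes the values come from RMA in Bioconductor. The authors deposited log2 values of 45101 probe sets. Of these, 34945 carried 1 gene symbol in the platform annotation and were used, 932 carried several, 9160 none, and 64 were control probe sets. Each of 18193 genes was represented by its brightest probe set, by the mean of the 10 arrays.

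The comparison of KGF and DCI with control was fitted in limma 3.58.1 (R 4.3.3) with day and a treatment factor of 4 levels over the 8 arrays of days 17 and 24, and with eBayes and a mean trend. This left 3 residual degrees of freedom, with 4.67 from the prior, and the median SE of a difference was 0.14. P-values were adjusted by the Benjamini-Hochberg method over all genes, with calls at 0.05. The change between days came from a model with 1 residual degree of freedom. Precision is limited by the number of arrays. The scripts were tested on simulated data, and Python 3.11.15, pandas 2.3.3 and matplotlib 3.10.9 were used for tables and figures.

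Members and lists were chosen with earlier results of these data known. Genes were named by a rule: the 12 largest rises and 12 largest falls among genes that passed with 1 sign on both days and reached the median of all values on 1 of the 4 arrays, the 6 largest each way of the other contrasts, a fixed set, and up to 4 members of each of 35 lists with the largest differences. Other members were named after their values were seen. Alternatives covered the variance prior, the filter, the choice of probe set, normalization, threshold, samples and model, and each array left out in turn. Counts per list under these settings were added after seeing the data.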

Additional observations from a re-analysis of the deposited data

Results flagged for a closer look

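The results below were picked out because the difference between KGF and DCI and control on day 24 was set apart from that on day 17 in a test of the change itself. Each group and day is 1 array, so that the test has 1 residual degree of freedom, takes its spread from the fit over all 8 arrays and mostly from a prior over all genes, and gives no replicate check for a gene. Each value is the day 24 difference minus the day 17 difference on the log2 scale. None of them passed when variances were moderated without a mean trend, and the causes were not tested.

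Among the macrophage and leukocyte genes picked out, the difference was further below 0 on day 24: C1qc -3.01, F13a1 -2.97, Clec4n -2.83, Ccl12 -2.77, Lyz2 -2.66, Aif1 -2.31, Mpeg1 -2.12, Cd74 -2.03, Ly86 -1.89, Mrc1 -1.87, Alox5ap -1.85, Adgre1 -1.83 and Plek -1.50. For Ccl12, the values with KGF and DCI were at the low end of the scale on both days, where a signal cannot be told from background. The platelet chemokine Ppbp gave -3.03 and the lipoxygenase Alox15 -1.77, with differences above 0 on both days that were smaller on day 24. Upward values were those of Gp2 3.02, the gastrokine Gkn3 2.69, Prap1 2.59, Fam3b 2.52, the pepsinogen Pgc 2.44, Zg16 2.36, Bpifa1 0.87 and the glucocorticoid target Fkbp5 1.15. The macrophage list had 14 of 30 genes passing downward and the yolk sac and fetal liver list 10 of 21, with none upward. Of the gastric list 3 of 15 genes passed upward and none downward, and of the intestinal list none upward and 1 of 19 downward. Shares over all genes were 0.291% upward and 1.01% downward.

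Downward values of other genes were Car4 -3.43, the lipoprotein Apob -2.94, Cxcl3 -2.33, the cilium genes Dynlrb2 -1.89 and Cfap126 -1.29, the neuronal enzyme Gad1 -1.78, the muscle kinase Ckm -1.09, Hsd11b1 -1.01 and Hopx -0.76. For Cxcl3 and Hsd11b1 the rise was smaller on day 24, with 2.39 on day 17 and 1.38 on day 24 for Hsd11b1. Car4, a carbonic anhydrase, was at 6.96 and 4.23 with KGF and DCI and 7.41 and 8.11 in controls, and its mean difference of -2.16 ± 0.83 did not pass. Apob, which carries lipid out of liver and yolk sac cells, was at 7.44 and 5.30 with KGF and DCI and 7.21 and 8.01 in controls. Its difference was 0.23 on day 17 and -2.71 on day 24.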

How the results depend on the processing

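The count of genes for KGF and DCI against control was 1174. It ran from 350 to 1436 with 1 array left out. It was 820 without a mean trend, 438 with a 2-fold minimum, 729 on the 4 arrays compared, 1808 with an additive model on all 10 arrays and 1930 at an adjusted p under 0.10. The 2-fold minimum lowers the count and the laxer threshold raises it by construction. The cause of the other shifts was not tested. For DCI alone (896) it ran from 199 to 979, and was 563 without a trend, 371 with the 2-fold minimum and 1366 at the laxer threshold. For KGF alone (4) it ran from 1 to 6, with 1 without a trend. Against DCI alone (2) it ran from 0 to 6, with 1 without a trend and 1 with the mean of probe sets. Against KGF alone (696) it ran from 184 to 661, and was 458 without a trend, 345 with the 2-fold minimum and 1115 at the laxer threshold. The departure from the sum stayed at 0 under each setting run. The change between days (237) gave 0 without a trend, 118 after a second quantile normalization, 769 with every probe set tested and 419 at the laxer threshold.

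Of 107 named genes that passed, 15 lost their call without a mean trend, 14 with a robust prior, 13 with the mean of probe sets, 21 on the 4 arrays, 6 with the additive model on all 10 arrays, 2 after a second quantile normalization, and 0 with the lowest 40% of genes removed or the additive model on 8 arrays. Those lost with the robust prior were Muc5b, Gkn1, Gkn2, Cxcl3, Gp2, Cldn18, Hsd11b1, Fga, Aif1, Mpeg1, Mrc1, Lyz2, Alox5ap and C1qc. Those lost without a mean trend were Foxa1, Gp2, Clcn2, Myh6, Kit, Fga, Col1a1, Scd2, Wnt4, Lyz2, C1qc, B2m, Acta2, Mki67 and Actb. Those lost with the mean of probe sets were Gp2, Cldn18, Ager, Cftr, Clcn2, Fkbp5, Kit, Col1a1, Lss, Scd2, C1qc, Acta2 and Actb. On the 4 arrays they were Gp2, Foxa1, Ager, Tppp3, Cftr, Clcn2, Abcb1b, Nfil3, Myh6, Mmp3, Mmp2, Col1a1, Lss, Scd2, Trib3, Aldh1l2, Slc7a5, Wif1, C1qc, Mki67 and Actb. The additive model on all 10 arrays lost Sftpd, Foxa1, Ager, Tppp3, Lss and Trib3, and the second quantile normalization lost Clcn2 and Actb. Among the lists, airway genes kept 13 to 16 higher and macrophages 18 to 28 lower members in these settings. Epithelial genes had 16 to 22 higher members, without the 2-fold minimum. Type I genes had 1 higher with the mean of probe sets and 2 on the 4 arrays. On the 4 arrays amino acid stress genes had 1 higher, circadian clock genes 3, transport genes 3, sterol and fatty acid genes 1 and pluripotency genes 3. Fibroblast matrix genes had 2 higher without a trend, 3 with the mean of probe sets and 1 on the 4 arrays, and lung and foregut factors 2 without a trend or on the 4 arrays. Without a trend transport genes had 4 higher, yolk sac genes 3 and hypoxia genes 3. Gastric genes had 3 higher with the robust prior, and intestinal genes 2 with the lowest 40% removed and 7 with the additive model on all 10 arrays. Chemokines had 2 higher and 4 lower without a trend, and 8 higher and 5 lower with that additive model. None reversed among 176 named genes in these settings or with 1 array left out. With 1 array left out, 48 were lost without the day 24 control and 47 without the day 24 array with both treatments. The analysis is paired by day, since day is a term of the fit, and the labels give no replicate numbers that could form a further block. Signal near background limits genes with low values, such as Sftpa1 and Nkx2-1, and these values give no error within an array.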

Other observations

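Prap1, Zg16 and Pgc, products of gut or stomach epithelium that none of the text above describes by sample, were highest on day 24 in the arrays with DCI. Prap1, a secreted protein of gut epithelium, was at 7.09 and 9.92 with KGF and DCI, 8.45 and 9.84 with DCI alone, 5.65 and 6.85 with KGF alone and 6.95 and 7.18 in controls. Zg16, a lectin of zymogen granules and goblet cells, was at 6.35 and 9.78 with KGF and DCI, 7.01 and 9.57 with DCI alone, 5.37 and 5.74 with KGF alone and 5.14 and 6.21 in controls. Pgc, a pepsinogen, was at 4.31 and 6.72 with KGF and DCI, 4.26 and 7.40 with DCI alone, 4.10 and 4.21 with KGF alone and 4.06 and 4.03 in controls. Their mean differences from control were 1.44 ± 0.48, 2.39 ± 0.62 and 1.48 ± 0.72, and none of these passed. Ppbp, a chemokine precursor of platelets, was at 11.03 and 11.31 with KGF and DCI, 10.97 and 11.11 with DCI alone, 6.28 and 8.67 with KGF alone and 6.73 and 10.04 in controls, and its mean difference of 2.79 ± 0.70 did not pass.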
